A study of Mus musculus with 6 samples.

Results

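The local insulin-like growth factor (IGF) system of cultured muscle satellite cells (SCs) was described through 10 genes, namely the ligands *Igf1* and *Igf2*, the receptors *Igf1r*, *Igf2r* and *Insr*, and the binding proteins *Igfbp2*, *Igfbp3*, *Igfbp4*, *Igfbp5* and *Igfbp6*. They were taken by gene name from an RNA sequencing table of 55416 genes, in which each name occurred once. The rule that takes them uses gene names and no measured value. The study compared SCs of wild-type (WT) mice with SCs of mice that lack lactoferrin (*Ltf*-KO), an iron-binding glycoprotein, to ask how its loss acts on SC proliferation. Both groups had 3 libraries and were untreated. The *Ltf*-KO line is a systemic knockout made in C57/BL6N zygotes with CRISPR-Cas9 guides in introns 2 and 8 of *Ltf*, so every cell type of these mice carries the deletion. The mice of the study were 8 to 10 weeks old unless it stated otherwise. Hind leg muscle was digested, SCs were sorted as α7-integrin+, CD34+, Sca1- and CD11b-, and they grew for 4 days on Matrigel before RNA was taken. The medium of both groups held 10 ng/ml basic FGF, 20% fetal bovine serum and 1% chick embryo extract, and serum itself supplies IGFs and binding proteins. The labels do not say whether the 3 libraries of a group came from separate mice, so p-values measure the spread between these libraries, which may be technical.

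IGF1 and IGF2 are small secreted proteins that bind the receptor tyrosine kinase IGF1R, which passes the signal through insulin receptor substrates to the PI3K-Akt and RAS-ERK cascades. IGF2R takes up IGF2 and delivers it to lysosomes, so it acts as a clearance receptor. The binding proteins hold IGFs outside the cell, and they can limit or prolong signaling. In myoblasts IGFs are known to promote both proliferation and differentiation, and *Igf2* is known to be induced as myoblasts differentiate.

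Expression is given in TPM (transcript abundance), a scale that divides reads by gene length and sets every library to the same total, so levels of different genes can be compared while the depth behind a value is unknown. The 6 libraries summed to 993650 to 994356 TPM. The myogenic markers fixed for this check (9 genes, among them *Pax7*, *Myf5*, *Myod1* and *Des*) summed to 1966 to 2029 TPM in WT and 2004 to 2054 TPM in *Ltf*-KO libraries, with only *Chodl* under a mean of 1 TPM. Markers of other cells were present at lower sums. Over both genotypes these were 178.55 to 211.84 TPM for fibroblasts (2 of 8 markers under a mean of 1 TPM), 42.61 to 51.04 TPM for smooth muscle and pericytes (3 of 6), 11.66 to 21.81 TPM for Schwann cells (0 of 4), 5.68 to 14.22 TPM for endothelium (1 of 5) and 3.66 to 11.56 TPM for macrophages (4 of 6, *Ptprc*, *Adgre1*, *Csf1r* and *C1qa*). Single genes made up most of the 2 largest of these sums. Of the fibroblast markers, *Col3a1* was at 88 to 117.69 TPM and *Gsn* at 75.68 to 87.49 TPM, and no other exceeded 9.32 TPM (*Col1a1*). Of the smooth muscle and pericyte markers, *Cspg4* was at 30.76 to 41.07 TPM, and no other exceeded 9.07 TPM (*Notch3*). The targeted gene *Ltf* did not exceed 0.12 TPM in any WT library or 0.03 TPM in any *Ltf*-KO library, and these ranges overlapped, so its level cannot check the genotypes.

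*Igf2* was the most abundant transcript of the system, and the ligand pair was almost entirely *Igf2*. It was at 549.49, 643.73 and 490.48 TPM in WT and at 556.46, 488.27 and 726.01 TPM in *Ltf*-KO libraries. Its mean of 575.7 TPM over the 6 libraries was rank 245 of 55416 genes. *Igf1*, the ligand made mainly by liver and by cells of the muscle niche, was at 1.46, 0.82 and 0.84 TPM in WT and at 0.76, 0.68 and 1.32 TPM in *Ltf*-KO libraries. *Igf2* thus exceeded *Igf1* by 376-fold in the library with the smallest ratio (WT replicate 1) and by 785-fold in that with the largest (WT replicate 2). The high *Igf1* libraries, WT replicate 1 and *Ltf*-KO replicate 3, belong to different genotypes. Fibroblast and cycling markers went with *Igf1* over the 6 libraries, the first inversely, and their correlations are given with the other relations further on. Macrophage markers, which summed to 4.46 to 11.6 TPM in WT and 3.66 to 4.73 TPM in *Ltf*-KO libraries, were highest in WT replicate 1 and lowest in *Ltf*-KO replicate 3, the 2 libraries with high *Igf1*. The part of these cells in the *Igf1* values was not tested.

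Binding proteins came next, led by *Igfbp3*, which encodes the main IGF carrier of serum, and *Igfbp5*, the binding protein best known for its regulation in muscle differentiation. *Igfbp3* was at 154.17, 145.2 and 158.61 TPM in WT and at 159.98, 146.88 and 141.18 TPM in *Ltf*-KO libraries. *Igfbp5* was at 92.82, 100.11 and 94.08 TPM in WT and at 101.34, 98.32 and 102.7 TPM in *Ltf*-KO libraries. *Igfbp2* followed at 66.3, 61.45 and 63.56 TPM in WT and at 56.98, 65.79 and 65.12 TPM in *Ltf*-KO libraries. For each of these 3 genes the genotypes overlapped. *Igfbp4* (9.02 to 11.94 TPM over the 6 libraries) and *Igfbp6*, which prefers IGF2 over IGF1 (8.07 to 9.93 TPM), were lower. The summed level of the 5 binding proteins was 331 ± 3.98 TPM for WT (SD, n = 3) against 333 ± 5.44 TPM for *Ltf*-KO (SD, n = 3), a difference smaller than the spread between replicates. *Igfbp3* made up 46.1% ± 1.52 (SD, n = 3) of this sum in WT and 44.9% ± 2.19 (SD, n = 3) in *Ltf*-KO SCs. The share of *Igfbp5* was 28.9% ± 1.51 (SD, n = 3) and 30.3% ± 0.76 (SD, n = 3), and that of *Igfbp2* was 19.2% ± 0.616 (SD, n = 3) and 18.8% ± 1.76 (SD, n = 3).

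**Figure D1:**
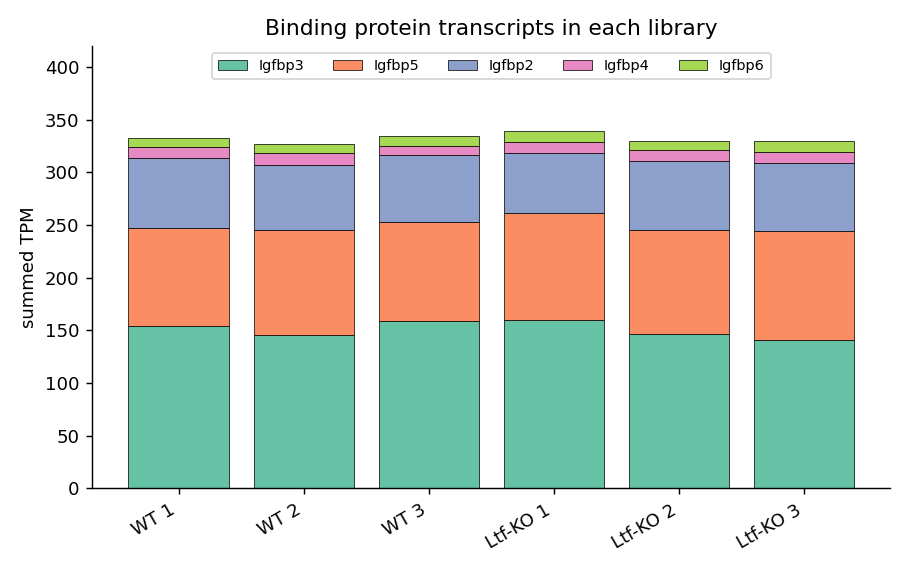
Stacked bars give the TPM of the 5 binding protein genes in each of the 3 WT and 3 *Ltf*-KO libraries, on a linear axis of summed TPM from 0. The bars reach 326.91 to 338.97 TPM, with *Igfbp3*, *Igfbp5* and *Igfbp2* as the 3 thick layers in every library.

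Among the receptors, *Igf2r* was the most abundant. It was at 73.83, 79.81 and 75.45 TPM in WT and at 80.56, 75.41 and 77.36 TPM in *Ltf*-KO libraries, and it made up 79.3% ± 0.379 (SD, n = 3) of the summed receptor TPM in WT and 78.1% ± 0.873 (SD, n = 3) in *Ltf*-KO SCs. *Igf2r* exceeded *Igf1r* by 5.54 ± 0.329 times (SD, n = 3) in WT and by 5.04 ± 0.196 times (SD, n = 3) in *Ltf*-KO SCs. *Insr*, which encodes the insulin receptor and whose product can pair with that of *Igf1r* in hybrid receptors, was the lowest receptor, at 5.22, 6.65 and 6.67 TPM in WT and 6.84, 6.83 and 5.43 TPM in *Ltf*-KO libraries. The 2 libraries with low *Insr*, WT replicate 1 and *Ltf*-KO replicate 3, were those with high *Igf1*. *Airn*, a long noncoding RNA transcribed antisense across part of *Igf2r*, was at 18.17 to 26.21 TPM, and *Igf2os*, antisense at *Igf2*, was at 1.23 to 2.25 TPM. Both were named after their values were seen, and as strand use in the counting is not given in the sources used here, reads of a gene and its antisense partner may not be separated.

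By mean TPM over the 6 libraries, the order from high to low was *Igf2*, *Igfbp3*, *Igfbp5*, *Igf2r*, *Igfbp2*, *Igf1r*, *Igfbp4*, *Igfbp6*, *Insr* and *Igf1*. Of the 9 neighbouring pairs in this order, 8 had ranges that lay apart over all libraries, and the upper gene was higher in 6 of 6 libraries. The exception was *Igfbp4* and *Igfbp6*, whose ranges overlapped and whose order held in 5 of 6 libraries. The largest gaps were those between *Insr* and *Igf1* (6.4-fold), between *Igfbp2* and *Igf1r* (4.33-fold) and between *Igf2* and *Igfbp3* (3.81-fold).

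**Figure D2:**
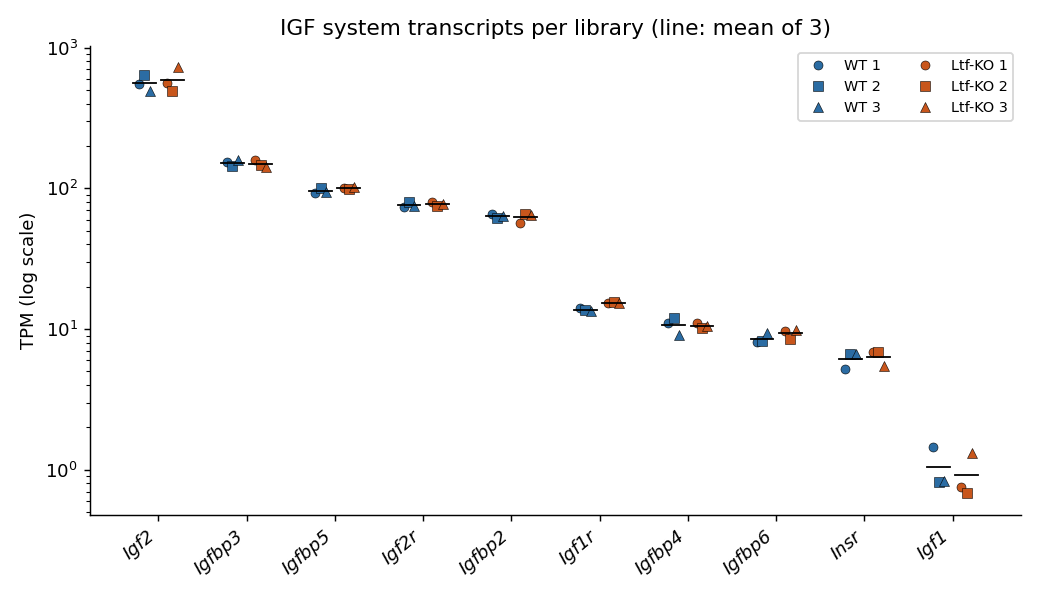
Points give the TPM (log axis) of each IGF gene in the 3 WT (blue) and 3 *Ltf*-KO (orange) libraries, and lines give the mean of each genotype. From *Igf2* (488.27 to 726.01 TPM) to *Igf1* (0.68 to 1.46 TPM) the genes keep their order in both genotypes, and the points of the genotypes are apart only for *Igf1r*.

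To ask whether loss of *Ltf* goes with another level of the IGF system, the genotypes were compared with limma on log2(TPM + 1) over the 12956 genes that averaged 1 TPM or more. This scale understates the fold change of genes with low TPM. Of the 10 members 9 were tested, since *Igf1* had a mean of 0.98 TPM. With Benjamini-Hochberg adjustment over all genes tested, 0 of the 9 members passed an adjusted p of 0.05 in limma, where 0.0% of all genes did. At an unadjusted p under 0.05, 1 of 9 members was called, *Igf1r*, against 3.78% of all genes tested (2.01% higher and 1.78% lower in *Ltf*-KO). It was also the only member whose groups did not overlap, which was so for 8.46% of all genes (4.73% higher and 3.73% lower in *Ltf*-KO). The median log2 fold change of the 9 members was 0.038, beside 0.011 for all genes tested.

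*Igf1r*, which encodes the signaling receptor of both ligands, was at 14.24, 13.69 and 13.43 TPM in WT and at 15.36, 15.54 and 15.39 TPM in *Ltf*-KO libraries. All 3 *Ltf*-KO libraries lay above all 3 WT libraries, and the *Ltf*-KO libraries were close to each other. Its mean was 13.8 ± 0.414 TPM for WT (SD, n = 3) against 15.4 ± 0.0964 TPM for *Ltf*-KO (SD, n = 3). On the log2 scale *Ltf*-KO was higher by 0.15, with a standard error of 0.051 and a 95% interval from 0.03 to 0.27. Its limma adjusted p was 0.999, so *Igf1r* did not pass the correction for all genes. A two-sided exact permutation test on *Igf1r* alone gave p = 0.1, the smallest that 3 against 3 libraries allow. The direction held under all 13 alternatives run (log2 fold change 0.13 to 0.17, adjusted p 0.946 to 1). The interval reached 0 or below, so that the unadjusted call was lost, in 6 of the 13. These were the fits without WT replicate 2 (log2 fold change 0.15), without WT replicate 3 (0.13), or with *Ltf*-KO replicate 1 (0.16), 2 (0.15) or 3 (0.15) left out, all of which rest on fewer libraries, and the fit with the replicate number as a block (0.15). Fibroblast markers summed to 178.55 to 185.8 TPM in WT and 179.03 to 211.84 TPM in *Ltf*-KO libraries, which overlapped. Most of this sum was *Col3a1* and *Gsn*, and the highest sum, in *Ltf*-KO replicate 1, held *Col3a1* at 117.69 TPM. All 6 that were tested had point estimates above 0 in *Ltf*-KO (median log2 fold change 0.16), of which 0 passed the adjusted test. Point estimates were also above 0 for all 9 markers of muscle differentiation and all 3 tested markers of smooth muscle and pericytes, beside 7220 of all 12956 genes. They were above 0 for 5 of 8 tested myogenic, 3 of 4 endothelial and 3 of 4 Schwann cell markers, but for 1 of 6 cycling and 0 of 2 macrophage markers. *Pcna*, *Mcm2* and *Cd68* were lower in *Ltf*-KO without overlap, as were 3.73% of all genes. Cycling markers summed to 1074.75 to 1164.94 TPM in WT and 1060.08 to 1130.76 TPM in *Ltf*-KO libraries, which overlapped. Pearson's r of *Igf1r* over the 6 libraries was 0.439 with the fibroblast list (exact permutation p = 0.394, adjusted p = 0.848). With the smooth muscle and pericyte list it was 0.749 (exact permutation p = 0.0944, adjusted p = 0.478). The part of these cells in the *Igf1r* values was not tested.

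For the other 8 tested members limma's 95% interval included 0. For *Igf2* the log2 fold change was 0.062 with an interval from -0.32 to 0.45, that is a fold between 0.799 and 1.36, the widest of the members. *Igf2r* had a log2 fold change of 0.026 (interval -0.085 to 0.14) and *Insr* of 0.038 (interval -0.26 to 0.34). *Igfbp5* averaged 95.7 ± 3.9 TPM in WT (SD, n = 3) against 100.8 ± 2.24 TPM in *Ltf*-KO SCs (SD, n = 3), with a log2 fold change of 0.075 (interval -0.028 to 0.18). *Igfbp6* had the second largest log2 fold change of the members, 0.12 (interval -0.092 to 0.33), with values of 8.07, 8.21 and 9.39 TPM in WT and 9.7, 8.53 and 9.93 TPM in *Ltf*-KO libraries. *Igfbp2* (-0.028, interval -0.19 to 0.13), *Igfbp3* (-0.032, interval -0.17 to 0.11) and *Igfbp4* (-0.0066, interval -0.25 to 0.24) were slightly lower in *Ltf*-KO SCs. Over the 5 binding proteins these intervals reached from 0.838-fold (*Igfbp4*) to 1.26-fold (*Igfbp6*).

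**Figure D3:**
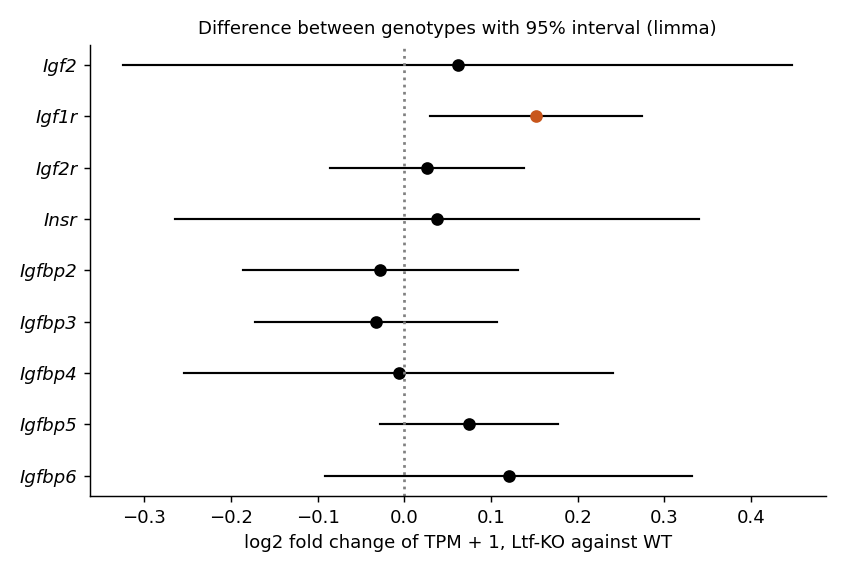
Points give the log2 fold change of TPM + 1 between *Ltf*-KO and WT SCs for the 9 tested IGF genes, and bars give limma's 95% interval. The interval of *Igf1r* (orange, the gene whose groups do not overlap) runs from 0.03 to 0.27, and the other 8 intervals include 0.

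Of the 9 tested members *Igf2* varied most, and it did so between libraries of the same genotype. Over the 6 libraries its coefficient of variation was 16.1%, above 96.3% of the 1391 genes that averaged 100 TPM or more, whose median was 3.74%. By contrast *Igf2r* varied by 3.46%, *Igfbp5* by 4.06% and *Igfbp3* by 5.09%. *Igf2* was highest in WT replicate 2 among WT libraries and in *Ltf*-KO replicate 3 among *Ltf*-KO libraries, and lowest in WT replicate 3 and *Ltf*-KO replicate 2. *Myog*, which encodes the differentiation factor myogenin, had the same order, with 319.3, 410.31 and 293.44 TPM in WT and 360.37, 266.24 and 507.77 TPM in *Ltf*-KO libraries. *Mymk*, which encodes the fusion protein myomaker, was at 106.84, 133.32 and 102.03 TPM in WT and at 122.66, 101.57 and 160.16 TPM in *Ltf*-KO libraries. A list of 9 differentiation genes (*Myog*, *Mymk*, *Mymx*, *Myh3*, *Acta1*, *Ckm*, *Tnnt3*, *Mybph* and *Mef2c*) summed to 1604 to 2135 TPM in WT and to 1643 to 2503 TPM in *Ltf*-KO libraries, which overlapped. In these bulk cultures more differentiating cells and more RNA of these genes per cell cannot be told apart.

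Across the 6 libraries the level of *Igf2* on the log2(TPM + 1) scale had a Pearson's r of 0.973 with the mean of the differentiation list (two-sided exact permutation p = 0.00278, adjusted p = 0.15) and a Spearman's rho of 1 (exact permutation p = 0.00278, adjusted p = 0.225). The order of the libraries was the same within each genotype, where 3 libraries are too few for a correlation of their own. Without WT replicate 2 and *Ltf*-KO replicate 3, the libraries farthest from the median of the list, r was 0.848. The adjustment covers 81 relations, those of the 10 members with 8 marker lists and that of *Igf2* with *H19*. Of these, 11 had an unadjusted Pearson p under 0.05 and 0 passed the adjustment, where 0.00278 is the smallest p that 6 libraries allow in this test. A single relation at this smallest p cannot pass the adjustment alone, as with the rho of 1 above (exact permutation, adjusted p = 0.225). Of the 11, 4 were relations of *Igf2* (differentiation, *H19*, myogenic and endothelial genes), 3 of *Igf1*, 3 of *Insr* and 1 of *Igfbp6*. *Igfbp5*, which was not among them, had an r of 0.766 (exact permutation p = 0.0806, adjusted p = 0.466) and a rho of 0.714 (exact permutation p = 0.136, adjusted p = 0.613) with the differentiation list, and an r of 0.558 without the same libraries. With the myogenic list *Igf2* had an r of 0.942 (exact permutation p = 0.0167, adjusted p = 0.193) and a rho of 0.886 (exact permutation p = 0.0333, adjusted p = 0.45), and r was 0.901 without WT replicate 3 and *Ltf*-KO replicate 2. The genes of that list did not move alike. *Des*, *Cdh15*, *Itga7* and *Vcam1* were highest in WT replicate 2 and *Ltf*-KO replicate 3, as *Igf2* was. *Pax7*, the defining factor of SCs, was lowest in *Ltf*-KO replicate 3 (36.62 TPM) and highest in *Ltf*-KO replicate 2 (43.3 TPM), where *Igf2* was lowest. This inverse order was not seen in WT, where *Pax7* was at 42.41, 41.54 and 39.09 TPM. Its lowest WT value was in WT replicate 3, as was that of *Igf2*. *Myod1* was lowest in WT replicate 2 (747.62 TPM) and *Ltf*-KO replicate 3 (752.69 TPM) within the genotypes, and *Myf5* was lowest in the same libraries (120.69 and 109.37 TPM). With the endothelial list the r of *Igf2* was -0.899 (exact permutation p = 0.0194, adjusted p = 0.197) and rho was -0.886 (exact permutation p = 0.0333, adjusted p = 0.45), and r was -0.759 without WT replicate 2 and *Ltf*-KO replicate 3. The endothelial markers summed to only 5.68 to 14.2 TPM in WT and 5.68 to 13.3 TPM in *Ltf*-KO libraries, and their part in the *Igf2* values was not tested.

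*Igf1* and *Insr* had relations of opposite sign with the same 3 lists. With fibroblast markers the r of *Igf1* was -0.867 (exact permutation p = 0.00556, adjusted p = 0.15) with a rho of -0.943 (exact permutation p = 0.0167, adjusted p = 0.338), and that of *Insr* was 0.817 (exact permutation p = 0.00556, adjusted p = 0.15) with a rho of 0.943 (exact permutation p = 0.0167, adjusted p = 0.338). With cycling markers r was 0.871 for *Igf1* and -0.851 for *Insr* (exact permutation p = 0.0167, adjusted p = 0.193 for each), and rho was 0.829 and -0.829 (exact permutation p = 0.0583, adjusted p = 0.525 for each). Without WT replicate 1 and *Ltf*-KO replicate 2, r with these lists was -0.648 and 0.642 for *Igf1* and 0.654 and -0.677 for *Insr*. The fibroblast markers did not all move alike. *Pdgfra*, *Col1a1*, *Dcn*, *Lum* and *Gsn* were lowest in WT replicate 1 and highest in *Ltf*-KO replicate 2. *Ly6a* was lowest in WT replicate 1 (1.33 TPM) but highest in *Ltf*-KO replicate 3 (3.21 TPM), both libraries with high *Igf1*. *Igf1* itself was at only 0.68 to 1.46 TPM. With Schwann cell markers *Igf1* had an r of -0.824 (exact permutation p = 0.0472, adjusted p = 0.348) and a rho of -0.657 (exact permutation p = 0.175, adjusted p = 0.616), and r was -0.864 without WT replicates 1 and 3. *Insr* had an r of 0.83 with them (exact permutation p = 0.0389, adjusted p = 0.315) and a rho of 0.771 (exact permutation p = 0.103, adjusted p = 0.595), and r was 0.785 without WT replicates 1 and 3. *Igfbp6* had an r of -0.763 with macrophage markers (exact permutation p = 0.0222, adjusted p = 0.2) and a rho of -0.829 (exact permutation p = 0.0583, adjusted p = 0.525), and r was -0.66 without WT replicate 1 and *Ltf*-KO replicate 3. The part of these cells in the levels of *Igf1*, *Insr* and *Igfbp6* was not tested.

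*H19*, the long noncoding RNA gene next to *Igf2* on chromosome 7, followed *Igf2* closely. The genes are imprinted in opposite directions and are known to share enhancers. *H19* was at 4723.24, 5328.77 and 4271.82 TPM in WT and at 4705.66, 4257.72 and 5818.68 TPM in *Ltf*-KO libraries. The ratio of *H19* to *Igf2* stayed between 8.01 (*Ltf*-KO replicate 3) and 8.72 (*Ltf*-KO replicate 2), while *Igf2* itself differed by 1.49-fold between its highest and lowest library. Their r was 0.999 (two-sided exact permutation p = 0.00833, adjusted p = 0.169) and rho was 0.943 (exact permutation p = 0.0167, adjusted p = 0.338). Without WT replicate 2 and *Ltf*-KO replicate 3, r was 0.995. Among the 8071 other genes that averaged 10 TPM or more, the 3 most like *Igf2* by Pearson's r over the 6 libraries were *Gpam*, *H19* and *Tnnt1* (r = 0.999, 0.999 and 0.997). Of the 9 differentiation genes 8 averaged 10 TPM or more, and they stood at rank 16 (*Myog*), 20 (*Tnnt3*), 34 (*Mymk*), 44 (*Mybph*), 45 (*Myh3*), 97 (*Mymx*), 132 (*Acta1*) and 392 (*Mef2c*, r = 0.814) of these genes. *Ckm*, the ninth, was at 4.23, 5.05 and 5.53 TPM in WT, with its highest WT value in WT replicate 3, where *Igf2* was lowest. In *Ltf*-KO libraries it was at 5.53, 3.85 and 6.28 TPM, the same order as *Igf2*. With so few libraries and so many genes, such ranks are a description.

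**Figure D4:**
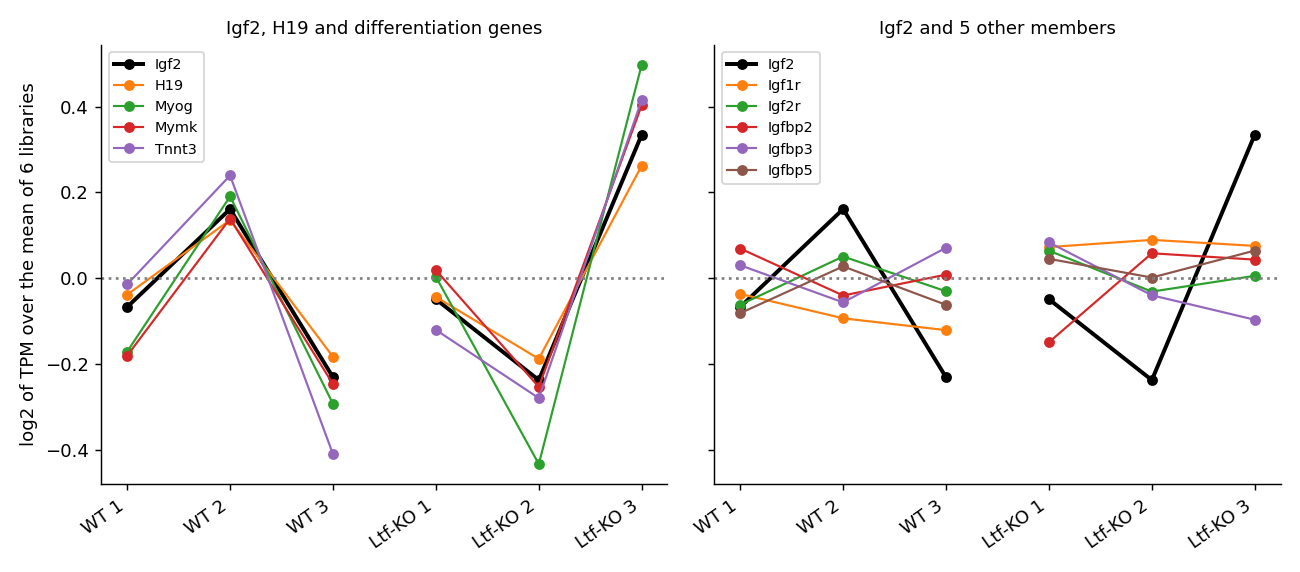
Points give the log2 of each gene's TPM over its mean of the 6 libraries, with lines that join the values of a gene within a genotype and imply no order of replicates. On the left, *Igf2* (black), *H19*, *Myog*, *Mymk* and *Tnnt3* are highest in WT replicate 2 and *Ltf*-KO replicate 3 within their genotypes, and on the right *Igf1r*, *Igf2r*, *Igfbp2*, *Igfbp3* and *Igfbp5* vary less than *Igf2*. Of these 5, *Igfbp5* is also highest in WT replicate 2 and *Ltf*-KO replicate 3.

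The sequence before the annotated starts of *Igf2* is shown because *Igf2* varied most among the tested members and went with genes whose activators, MyoD and myogenin, bind the E-box CANNTG. RefSeq's annotation gives 4 windows for *Igf2*, before starts on the minus strand of chromosome 7, and TPM per gene do not tell which of them was used. The 250 bases before each start (GRCm38.p6, 5′ to 3′) are printed with E-boxes and GC boxes (GGGCGG, on either strand) in capitals.
Igf2, chr7:142666817-142667066, minus strand: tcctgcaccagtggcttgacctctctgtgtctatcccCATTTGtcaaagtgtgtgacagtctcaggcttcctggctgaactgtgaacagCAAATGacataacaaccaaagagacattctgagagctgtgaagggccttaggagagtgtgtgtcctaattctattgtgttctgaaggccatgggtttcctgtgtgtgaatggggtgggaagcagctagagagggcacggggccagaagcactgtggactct
Igf2, chr7:142661272-142661521, minus strand: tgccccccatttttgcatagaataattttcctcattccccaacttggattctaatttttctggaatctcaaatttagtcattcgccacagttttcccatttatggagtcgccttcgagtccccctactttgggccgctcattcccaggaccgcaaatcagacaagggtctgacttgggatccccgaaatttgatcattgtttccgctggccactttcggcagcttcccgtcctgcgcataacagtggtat
Igf2, chr7:142658805-142659054, minus strand: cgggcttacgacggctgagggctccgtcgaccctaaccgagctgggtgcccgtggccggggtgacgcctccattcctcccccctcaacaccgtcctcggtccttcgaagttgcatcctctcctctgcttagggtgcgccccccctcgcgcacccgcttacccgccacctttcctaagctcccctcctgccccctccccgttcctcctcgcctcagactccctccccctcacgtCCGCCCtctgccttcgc
Igf2, chr7:142657497-142657746, minus strand: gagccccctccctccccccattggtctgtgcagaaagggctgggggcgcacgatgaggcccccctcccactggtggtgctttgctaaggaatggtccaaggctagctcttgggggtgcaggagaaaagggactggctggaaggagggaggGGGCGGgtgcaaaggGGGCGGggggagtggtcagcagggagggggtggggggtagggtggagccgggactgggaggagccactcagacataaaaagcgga
The first window held 2 E-boxes, both in its upstream part, and the other windows held 0. The third held 1 GC box and the fourth held 2. E-boxes were found in 66.2% and GC boxes in 32.7% of all 32851 RefSeq windows of this length, so these matches are common. Binding of MyoD or myogenin to these windows was not tested. The GC content of the *Igf2* windows ran from 47.6% to 68.8%.

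For *Igf1r*, the member whose genotypes did not overlap, RefSeq's annotation gives 1 window, on the plus strand of chromosome 7.
Igf1r, chr7:67952007-67952256, plus strand: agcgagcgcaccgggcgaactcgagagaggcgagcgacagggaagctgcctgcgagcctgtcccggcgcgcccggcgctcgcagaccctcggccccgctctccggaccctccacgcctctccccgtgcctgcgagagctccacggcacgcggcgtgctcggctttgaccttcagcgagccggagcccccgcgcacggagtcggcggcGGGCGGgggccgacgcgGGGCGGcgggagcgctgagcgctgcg
This window held 42 CpG dinucleotides, 2 GC boxes, 0 E-boxes and 0 matches to TATAAA, with a GC content of 77.6%, above 97.6% of all windows, whose median GC content was 52.4%. Windows were found for 9 of the 10 members, 13 windows in all. E-boxes were in 9 of these 13 windows, GC boxes in 5 and TATAAA in 1 (*Igfbp4*), where 7.59% of all windows held TATAAA. *Igf2r* had the most E-boxes (4). None of the printed E-boxes and GC boxes overlapped.

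For the members other than *Igf2*, the 3 most similar genes were of many kinds. They were *Gpatch11*, *Stt3b* and *Ccdc50* for *Igf1r* (r = 0.964 to 0.971), *Ranbp2*, *Armcx3* and *Serf1* for *Igf2r* (0.978 to 0.984), and *Gm48368*, *Arfgef2* and *Usp6nl* for *Insr* (0.985 to 0.99). For *Igfbp2* they were *Rpl8*, *Bop1* and *Dnajc30* (0.972 to 0.997), for *Igfbp3* *Smarcd2*, *Cenpi* and *Bcas2* (0.984 to 0.996), and for *Igfbp5* *Myo10*, *Dzip1l* and *Cdc27* (0.985 to 0.99). For *Igfbp4* they were *Ect2*, *Gatb* and *Larp7* (0.971 to 0.981), and for *Igfbp6* *Ppp4r3b*, *Zmynd11* and *Scarb2* (0.979 to 0.989). The number of genes with an r over 0.95 was 64 for *Igf2* and 7 for *Igf1r*, and lay between 8 and 28 for the others. *Igfbp2* and *Igfbp5* lie next to each other on chromosome 1 in RefSeq's annotation of GRCm38.p6. Neither was among the 3 genes most like the other, but so short a list out of 8071 genes cannot show whether the pair moved together. The neighbour of *Igfbp3* on chromosome 11, *Igfbp1*, was listed at 0 to 0.05 TPM.

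The members also share annotations in the deposited table. All 5 binding proteins carry the IGFBP and the thyroglobulin type-1 domains, and *Igf1* and *Igf2* carry the insulin domain. The same 4 members, *Igf1*, *Igf2*, *Igf1r* and *Insr*, are listed in both the MAPK and the PI3K-Akt signaling pathways, while *Igfbp2*, *Igfbp4*, *Igfbp5* and *Igfbp6* are listed in 0 pathways.

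Of 7 further family members, *Ins1*, *Ins2*, *Insrr* and *Igfbpl1* were listed at 0 TPM in every library. *Igfbp1* (0 to 0.05 TPM) and *Igfals*, which encodes the subunit that stabilises IGF complexes in serum (0.03 to 0.16 TPM), were near 0. *Igfbp7*, a binding protein of low affinity, was at 31.6, 25.68 and 31.8 TPM in WT and at 35.26, 45.97 and 23.86 TPM in *Ltf*-KO libraries, which overlapped (log2 fold change 0.19, interval -0.35 to 0.73). The 5 endothelial markers summed to 7.36, 5.68 and 14.22 TPM in WT and to 11.48, 13.31 and 5.68 TPM in *Ltf*-KO libraries. They did not all move alike, as *Kdr* was lowest in *Ltf*-KO replicate 1 (1.31 TPM). The part of these cells in the *Igfbp7* values was not tested.

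Among 7 proteases of binding proteins and their inhibitors, the lysosomal protease gene *Ctsd* was the most abundant, at 504.68 to 577.06 TPM. *Htra1* (6.88 to 8.56 TPM), *Adam12* (9.88 to 13.72 TPM) and *Stc2*, which encodes an inhibitor of PAPP-A (10.49 to 13.11 TPM), were at lower levels. *Pappa*, *Pappa2* and *Stc1* stayed at or under 0.43 TPM. Their log2 fold changes were 0.043 for *Ctsd*, -0.091 for *Htra1*, -0.014 for *Adam12* and 0.13 for *Stc2* (interval -0.057 to 0.31), and 0 of the 4 tested genes passed the test. Of the RNA-binding proteins of *Igf2* mRNA, *Igf2bp2* was the main one at 19.77 to 23.9 TPM, *Igf2bp3* was at 3.15 to 4.61 TPM and *Igf2bp1* at 0.1 to 1.5 TPM. *Igf2bp2* (-0.0097), *Igf2bp3* (-0.15) and *H19* (0.039) had log2 fold changes whose intervals included 0.

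Downstream of the receptors, 13 adaptors and brakes and 18 genes of the PI3K, Akt, mTOR and FoxO group were tested. Together with the 3 lists of the 2 paragraphs before, 39 of 49 genes passed the filter, and 0 of them had a limma adjusted p under 0.05. At an unadjusted p under 0.05, 0 of the 39 were higher and 2 lower in *Ltf*-KO SCs, *Grb2* and *Mtor*. Of all genes tested, 3.78% were called (2.01% higher and 1.78% lower), and 3.73% were lower in *Ltf*-KO without overlap. *Grb2*, an adaptor that links receptors to RAS, was lower in *Ltf*-KO SCs without overlap, at 88.86, 82.54 and 87.82 TPM in WT and 75.16, 76.78 and 78.03 TPM in *Ltf*-KO libraries (log2 fold change -0.17, interval -0.27 to -0.068, limma adjusted p = 0.999). The exact permutation test gave p = 0.1 for *Grb2*, and its unadjusted call held in 13 of 13 alternatives. *Mtor*, the growth-control kinase, was at 17.96, 22.54 and 19.25 TPM in WT and at 18.01, 14.61 and 16.75 TPM in *Ltf*-KO libraries. These overlapped, since *Ltf*-KO replicate 1 was above WT replicate 1. Its log2 fold change was -0.26 (interval -0.52 to -0.0023, limma adjusted p = 0.999), with an exact permutation p of 0.2. The interval included 0 in 7 of 13 alternatives. These were no filter, no trend and the replicate block (log2 fold change -0.26 in each), and the fits without WT replicate 2 (-0.17), with *Ltf*-KO replicate 2 left out (-0.18), in the absence of WT replicate 3 (-0.28) and in that of *Ltf*-KO replicate 3 (-0.27). The adaptor *Irs1* (21.64 to 23.44 TPM) and *Enpp1*, a brake on the insulin receptor (0.86 to 1.69 TPM), had log2 fold changes of 0.044 and 0.24 with intervals that included 0. So did *Pik3r2* (0.089), a regulatory subunit of PI3K, and *Pdpk1* (0.069), the kinase that activates Akt. *Akt1*, at 194.4 to 205.06 TPM, was the most abundant gene of the PI3K group.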

How the data were processed

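RNA was sequenced from 6 libraries of sorted SCs grown for 4 days, 3 WT and 3 *Ltf*-KO, grouped by the sample titles. The authors deposited one table of TPM values with 2 decimals for 55416 genes, and the study states that the company's protocol was used to extract and normalize the data. The submitters' processing notes name the build GRCm39. The aligner, counting tool, annotation and strand setting are not given in the sources used here. The unit was taken from the values, as the 6 columns sum to nearly the same total (993650 to 994356). TPM keep no read counts, so no interval of counting error can be given.

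From these values, log2(TPM + 1) was computed and the 12956 genes that averaged 1 TPM or more were tested with limma 3.58.1 in R 4.3.3 (lmFit, and eBayes with trend, two-sided, no covariate), with p-values adjusted by the Benjamini-Hochberg method over all genes tested. The fit was tested on simulated data. Correlations used two-sided exact permutation over the 720 pairings of 6 libraries (scipy 1.17.1). The members, lists and tests were chosen with earlier results of these data known. Named were all members, the first 3 pathway lists whole, the 3 genes with the smallest p of the other 2 lists, and for each tested member the 3 genes of at least 10 TPM with the highest correlation. Promoters are RefSeq windows on GRCm38.p6 matched by symbol, and coordinates are of that build, not of the one the notes name. Alternatives were a pseudocount of 0.1, no filter, a 10 TPM filter, leaving out each library, the replicate number as a block, quantile normalization, median-of-ratios scaling and no trend. Count models were not run. Genes at an unadjusted limma p under 0.05 are counted, and single genes are given with intervals, adjusted p and exact permutation p.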

Additional observations from a re-analysis of the deposited data

How the results depend on the processing

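The count of members and of other pathway genes at an adjusted limma p under 0.05 was 0 under all 13 alternatives. Of all genes tested, 0 passed when all 6 libraries were used, and 0 to 7 of 12945 to 12991 genes passed with single libraries left out. The latter fits called 446 to 613 genes at an unadjusted p under 0.05. At an unadjusted p under 0.05, 1 member was called, *Igf1r*. This count was 0 with the replicate block, and 0 to 1 when single libraries were left out, where the gene called without WT replicate 2 was *Igfbp5* (log2 fold change 0.11). The count of pathway genes was 2, and it was 1 (*Grb2*) without a trend, without a filter and under the replicate block, and 1 to 3 when single libraries were left out. The cause was not tested. *Igf1r*, *Igf2r*, *Igfbp5* and *Igfbp6* kept their direction under every alternative run. With one library left out, log2 fold changes crossed 0 for *Igf1* (-0.23 to 0.054), *Igf2* (-0.097 to 0.19), *Insr* (-0.062 to 0.13), *Igfbp2* (-0.064 to 0.038), *Igfbp3* (-0.083 to 0.0069) and *Igfbp4* (-0.11 to 0.073), and no other alternative changed a direction.

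The labels give both genotypes replicate numbers 1 to 3. Deviations of same-numbered libraries correlated at -0.041, -0.058 and -0.088 across genes, and no library correlated best with its own number. These values show no pairing by number, but with 3 libraries in each group they cannot exclude a small shared effect. With the replicate block 380 genes had an unadjusted p under 0.05, against 490 without it. Lower values in *Ltf*-KO made up 46.9% of these 490 genes, against 60% with quantile normalization (305 of 508) and 57.6% with median-of-ratios scaling (289 of 502). With no filter 890 of 26553 genes had an unadjusted p under 0.05, and with the 10 TPM filter 281 of 8072. *Igf1*, *Insr* and *Igfbp6* fall under that mean, so that setting gave no value for them. The median log2 fold change of all genes moved by less than 0.1 under every alternative. TPM without counts limit what can be said of *Igf1*, whose values lie near 1 TPM.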
